A study of Mus musculus with 2 samples.

Results

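The costimulatory and checkpoint genes described here are 10 genes, picked by name: Cd80, Cd86, Icosl, Cd40, Cd83, Cd274, Pdcd1lg2, Cd28, Havcr2 and Cd200r1. They are 10 of the 55536 genes with Ensembl identifiers in the deposited tables, and all 10 were found by gene identifier. RNA was measured in bone-marrow-derived macrophages of the C57BL/6J mouse strain, primary cells grown from marrow progenitors, and only the nucleoplasmic part of the nuclear fraction was sequenced after depletion of ribosomal RNA. Both libraries, biological replicates 1 and 2, came from cells treated with Lipid A at 100 ng/ml for 12 h, kept without it for 12 h, and treated again at 100 ng/ml for 40 min. Lipid A is the part of bacterial lipopolysaccharide that TLR4 senses. The 2 libraries carry 1 donor entry, so their spread may be technical in part, and sex and age were not collected. The labels give 1 µg of starting RNA for library 1 but 500 ng for library 2, a difference that cannot be told apart from the replicate number. No untreated or singly treated group was analysed here, so the values below are levels in 1 condition and carry no p-value.

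Antigen-presenting cells give T cells a second signal beside the antigen. CD80 and CD86 bind CD28, which activates the T cell, or CTLA-4, which restrains it, and ICOS ligand acts through ICOS. PD-L1, encoded by Cd274, and PD-L2, encoded by Pdcd1lg2, bind the inhibitory receptor PD-1, and bacterial products and interferons are known to raise PD-L1 on macrophages.

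All 10 genes were detected, meaning an expected count of 10 or more in each library, where 49.9% of 22028 annotated protein-coding genes were. A level is given in TPM, an abundance scaled by transcript length and by library, as mean ± SD over the 2 libraries. The SD also holds a shift of scale, since the median detected gene had a log2 ratio of -0.38, library 2 over library 1. Relative to the median gene, Cd274 was 1.34-fold higher in library 2 and Cd83 1.04-fold higher in library 1. The SDs therefore do not rank the genes by how closely the libraries matched. The median of the 10 was 33.6 TPM, beside a median of 6.38 TPM over the 10991 detected protein-coding genes. The 10 genes were chosen with earlier results of these data known, so both comparisons may in part reflect the choice. Since RNA of a whole culture was measured, fewer cells of a type and less RNA per cell cannot be told apart. Library 1 held 19797829 and library 2 held 17213606 expected counts on named genes. All 9 macrophage markers, Lyz2, Adgre1 and Csf1r the highest, were detected, with a median of 181 TPM. Of 17 T cell markers only Cd4 and Cd5 were detected, and Cd3e, Cd3g, Trbc1, Trbc2 and Cd2 had 0 counts in both libraries, which allows up to 0.152 and 0.174 CPM, the unit being counts scaled to the library total on named genes. Dendritic cell markers summed to 8.88 TPM in library 1 and 4.20 in library 2, with 5 of 9 detected and Cd209a at 0. None of 6 B cell, 5 natural killer cell or 5 neutrophil markers was detected, and of 6 mast cell or basophil markers Kit alone was, at 0.840 TPM.

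**Figure D1:**
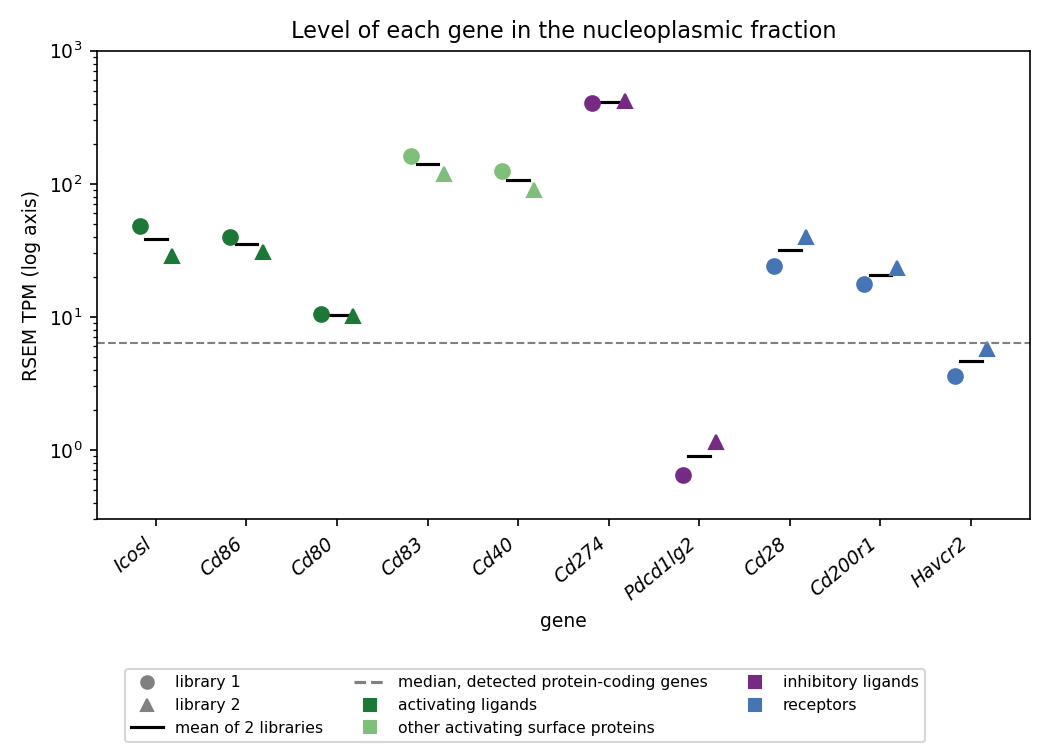
RSEM TPM of each gene on a log axis, with circles for library 1, triangles for library 2 and a black bar for their mean, coloured by role. Cd274 lies above the others by RSEM at 407 and 421 TPM, Pdcd1lg2 lies lowest at 0.65 and 1.15 TPM, and the dashed line marks the median of detected protein-coding genes at 6.38 TPM.

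By RSEM TPM the inhibitory ligands held both the highest and the lowest level of the 10 genes; by kallisto Pdcd1lg2 was again the lowest, but Cd40 was above Cd274. Cd274 (ENSMUSG00000016496.7, chr19:29367455-29388095, plus strand, mm10) had 407 TPM in library 1 and 421 in library 2, or 414 ± 9.93 TPM (SD, n = 2). That level was higher than in 99.4% of detected protein-coding genes. Pdcd1lg2 (ENSMUSG00000016498.10, chr19:29410919-29471161, plus strand), the next of the 10 along the same strand, starts 22.8 kb after the end of Cd274. It stood at 0.65 and 1.15 TPM, or 0.900 ± 0.354 TPM (SD, n = 2), at the 11.2 percentile. These values rest on 20 and 37 expected counts, which are 1.01 CPM (Wilson 95% interval 0.654 to 1.56) and 2.15 (1.56 to 2.96). The intervals cover counting error only. Cd274 exceeded Pdcd1lg2 by 626-fold in library 1 and 366-fold in library 2 in TPM, a log2 ratio of 8.90 ± 0.55 (SD, n = 2). By kallisto, the second program whose values were deposited, the folds were 415 and 254.

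Reads of Cd274 were divided with an antisense gene. AC119228.1 (chr19:29373417-29384471, minus strand) lies inside the span of Cd274, and 511 nt of its exons lie over the 3622 nt of Cd274 exons. AC119228.1 held 12354.76 expected counts in library 1 and 9508.89 in library 2. The expected counts of Cd274, 29807.24 and 32390.11, are not whole, and with those of AC119228.1 they sum to 42162 and 41899. Some reads were thus counted in part for genes on opposite strands, and the sources used here do not say if strand was used. The level of Cd274 therefore depends on how the reads of these genes were shared out, and the share that belongs to each was not tested. The other 9 genes had whole expected counts, within 0.005, in both libraries. A930007I19Rik, antisense to Pdcd1lg2, shared 0 exonic nt with it and held 196 and 197 counts.

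Promoter sequences of the set were searched for short motifs, and a link between any match and the levels was not tested. RefSeq promoter sequences (GRCm38.p6) were at hand for 5 of the 10 genes, Cd80, Cd274, Pdcd1lg2, Icosl and Havcr2, and the 250 bases before each start were searched on both strands. An interferon-response type element (IRF element, GAAANNGAA) was found in Cd274 alone of the 5, 76 to 68 bases before the start, and in 7.13% of 32851 promoters. A match to the κB consensus was found in Pdcd1lg2 alone, 244 to 235 bases before the start, and in 3.90% of promoters. The GAS element (TTCNNNGAA) had no match in the 5 and was found in 7.02% of promoters. A pattern of the AP-1 type with any middle base (TGANTCA) was found in Cd80, 42 to 36 bases before the start, in Havcr2, 200 to 194 bases before it, and in 6.75% of promoters. Both matches read TGATTCA. The matches of Cd274 (chr19:29367352-29367381) and Pdcd1lg2 (chr19:29410669-29410698) are shown with their surroundings, the matching bases in capitals; a match is a description of the letters and not a measured site.
Cd274 promoter stretch: actgggtggcTTCGGTTTCacagacagcgg
Pdcd1lg2 promoter stretch: tgctgtGGGGAATCCCtggtacatgtggac

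The 3 activating ligands were at middle to high levels, below Cd274 and above Pdcd1lg2 in both libraries. Icosl (ENSMUSG00000000732.9, chr10:78069302-78083913, plus strand), which encodes ICOS ligand, had 48.4 TPM in library 1 and 28.9 in library 2, or 38.6 ± 13.8 TPM (SD, n = 2). Cd86 (ENSMUSG00000022901.13, chr16:36603869-36666081, minus strand) stood at 39.8 and 30.6 TPM, or 35.2 ± 6.51 TPM (SD, n = 2). Cd80 (ENSMUSG00000075122.5, chr16:38455561-38496335, plus strand) stood at 10.6 and 10.1 TPM, or 10.3 ± 0.354 TPM (SD, n = 2). Icosl and Cd86 lay at the 88.7 and 87.4 percentiles of detected protein-coding genes and Cd80 at the 62.4 percentile. The levels of Icosl and Cd86 overlapped, while Cd80 lay below both in each library. Cd86, which shares its receptors with Cd80, exceeded it 3.77-fold in library 1 and 3.04-fold in library 2, a log2 ratio of 1.76 ± 0.22 (SD, n = 2). By kallisto these folds were 3.63 and 2.03.

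Cd40 and Cd83 were the next highest genes after Cd274 by RSEM. Cd40 encodes the receptor through which T cell CD40 ligand activates antigen-presenting cells, and CD83 is a surface protein of mature dendritic cells known to keep MHC class II and CD86 at the surface. Cd83 (ENSMUSG00000015396.4, chr13:43784775-43803132, plus strand) had 160.43 TPM in library 1 and 119 in library 2, or 139.9 ± 29.0 TPM (SD, n = 2), at the 97.4 percentile. Cd40 (ENSMUSG00000017652.16, chr2:165055627-165072948, plus strand) stood at 124 and 90.25 TPM, or 107 ± 24.0 TPM (SD, n = 2), at the 96.4 percentile. The ranges of Cd83 and Cd40 overlapped. Neither gene had a direction between the libraries that held on every scale: RSEM TPM was higher in library 1, but relative to the median gene the log2 ratios of library 2 over library 1 were -0.05 for Cd83 and -0.09 for Cd40, and by kallisto both were 0.07. By kallisto, Cd40 was the highest of the 10, at 161 and 308 TPM against 94.1 and 229 TPM for Cd274. Of the kallisto level of Cd40, 60.7 and 124 TPM lay in Cd40-204, a transcript of 391 nt to which RSEM gave 0.

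The 3 receptors lay below Cd274, Cd83 and Cd40. CD28 is known as the T cell receptor for CD80 and CD86, TIM-3, encoded by Havcr2, is an inhibitory receptor of T cells and myeloid cells, and the CD200 receptor, encoded by Cd200r1, restrains myeloid cells that meet CD200. Cd28 (ENSMUSG00000026012.2, chr1:60716800-60773359, plus strand) had 24.2 TPM in library 1 and 39.8 in library 2, or 32.0 ± 11.1 TPM (SD, n = 2). Cd200r1 (ENSMUSG00000022667.18, chr16:44765736-44794978, plus strand) stood at 17.8 and 23.2 TPM, or 20.5 ± 3.83 TPM (SD, n = 2). Havcr2 (ENSMUSG00000020399.14, chr11:46454935-46481255, plus strand) stood at 3.58 and 5.73 TPM, or 4.66 ± 1.52 TPM (SD, n = 2), on 193 and 305 counts. All 3 were higher in library 2, with no overlap between them. Cd28, Cd200r1 and Havcr2 lay at the 86.1, 78.6 and 41.8 percentiles. Beside the 2026 and 3618 counts of Cd28, the 17 T cell markers summed to 22.5 TPM in library 1 and 24.6 in library 2, of which Cd4 made 19.8 and 23.0 TPM, while the T cell receptor complex genes Cd3e, Cd3g, Trbc1 and Trbc2 were at 0 counts. Of the same complex, Cd3d had 2 counts in each library, Cd247 had 4.09 and 4, and Trac had 2 and 0.

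By mean TPM the order was Cd274, Cd83, Cd40, Icosl, Cd86, Cd28, Cd200r1, Cd80, Havcr2 and Pdcd1lg2. In 6 of the 9 steps of this order the lower library of the higher gene lay above the higher library of the lower gene. The values overlapped between Cd83 and Cd40, between Icosl and Cd86, and between Cd86 and Cd28. In library 2 taken alone Cd28 came before Cd86 and Cd86 before Icosl. By kallisto Cd40 came first and 3 of the 9 steps were free of overlap. Kallisto TPM differed more between the libraries: the median gene was shifted by 0.86 on the log2 scale, library 2 over library 1, and by -0.38 in RSEM TPM.

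Activating and inhibitory ligands were set against each other within each library, which cancels the scale of the library. Cd80, Cd86 and Icosl summed to 98.8 TPM in library 1 and 69.6 in library 2, and Cd274 and Pdcd1lg2 summed to 408 and 422 TPM. The inhibitory sum was 4.13-fold higher in library 1 and 6.07-fold higher in library 2. The log2 ratio of activating over inhibitory TPM was -2.32 ± 0.39 (SD, n = 2). Cd274 alone decided the sign, since without it the log2 ratio was 6.58. With Cd40 and Cd83 added to the activating side the ratio was -0.34 ± 0.36, so that the sums differed by less than the SD between the libraries.

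**Figure D2:**
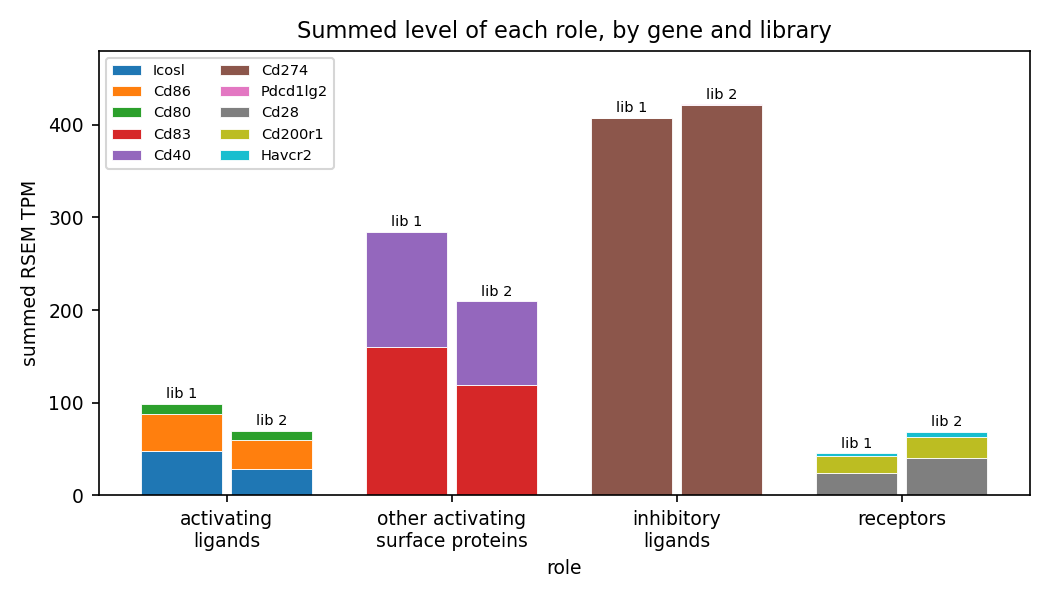
Summed RSEM TPM of the genes of each role, stacked by gene, with the left bar of each pair for library 1 and the right bar for library 2. The inhibitory bars reach 408 and 422 TPM and consist almost wholly of Cd274, since Pdcd1lg2 at 0.65 and 1.15 TPM is too thin to see, while the 3 activating ligands reach 98.8 and 69.6 TPM.

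Transcript classes split the genes further. The annotation gives each transcript a class, here protein coding, retained intron, nonsense-mediated decay or processed transcript. A coding transcript is 1 of the protein-coding class. Nuclear RNA can hold transcripts still being spliced, so a share in the retained-intron class cannot be told apart from introns not yet removed. In Cd83, the retained-intron transcript Cd83-202 took 86.7% of RSEM TPM in library 1 and 83.3% in library 2, and the coding transcript Cd83-201 was left with 21.3 and 19.9 TPM. In Icosl, retained-intron transcripts took 72.4% and 83.7%. Cd40 had 25.8% and 17.4% in this class and Cd28 had 8.90% and 4.24%. Among 6673 detected protein-coding genes with such a transcript, 10.1% had at least 50% of TPM in the class in both libraries, and Cd83 and Icosl were 2 of the 4 genes of the set that could. The medians of all these genes were 24.4% and 21.2%, and Cd83 and Icosl lay at the 98.95 and 98.2 percentiles. By kallisto the shares were 78.5% and 77.2% for Cd83 and 74.6% and 85.3% for Icosl, where 16.6% of genes passed the same limit.

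**Figure D3:**
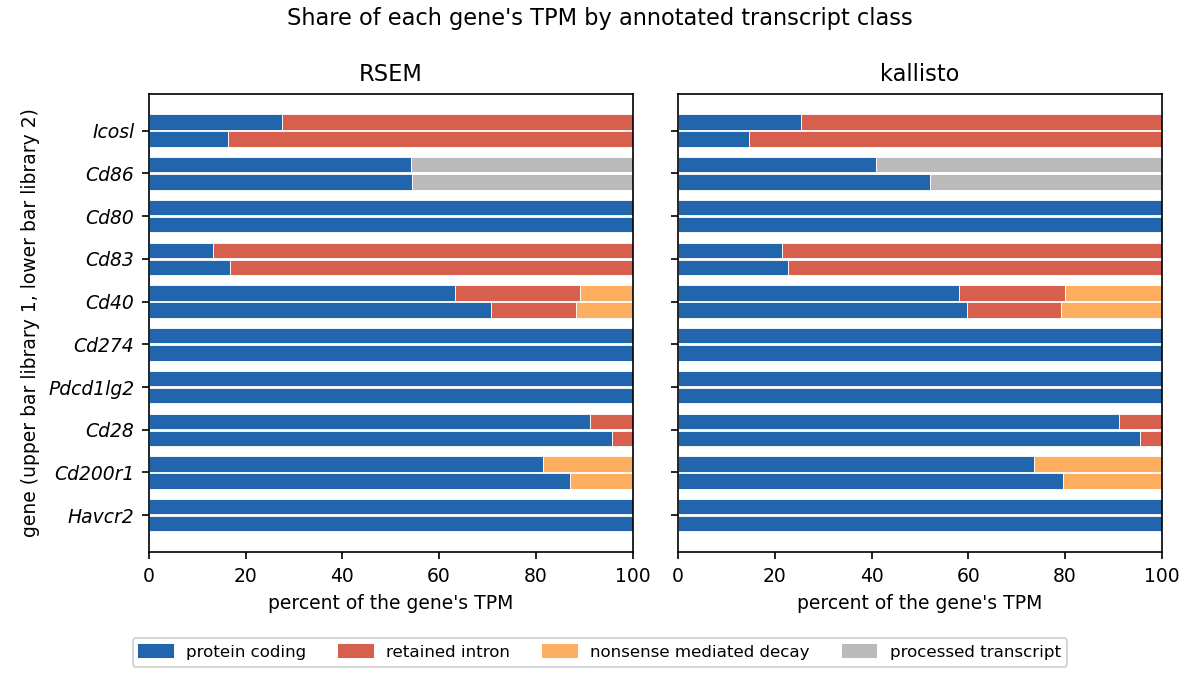
Percent of each gene's TPM in each annotated transcript class, by RSEM on the left and by kallisto on the right, with the upper bar of each pair for library 1 and the lower bar for library 2. Retained-intron transcripts make 86.7% and 83.3% of Cd83 and 72.4% and 83.7% of Icosl by RSEM. Cd274, Pdcd1lg2, Cd80 and Havcr2 lie wholly in the coding class, the only class annotated for them.

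The intron kept in Cd83-202 is short. It is intron 1, 95 nt long (chr13:43785251-43785345), it begins with GT and ends with AG, and Cd83-202 also lacks 410 nt at the 5′ end and 4 nt at the 3′ end of Cd83-201. The split between these transcripts therefore rests on reads over those stretches only. The sequences of mm10, plus strand, with 30 nt of exon on each side and the intron in capitals, show what sets the transcripts apart (chr13:43785221-43785375).
Cd83-202, intron kept: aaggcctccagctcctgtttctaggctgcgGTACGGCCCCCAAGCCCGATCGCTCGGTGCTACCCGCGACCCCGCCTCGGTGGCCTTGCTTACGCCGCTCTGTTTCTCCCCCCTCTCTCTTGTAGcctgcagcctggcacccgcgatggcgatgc
Cd83-201, intron removed: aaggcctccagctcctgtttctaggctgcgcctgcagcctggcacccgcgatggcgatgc

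Icosl held 2 retained-intron transcripts. Icosl-204 took 49.4% of TPM in library 1 and 58.2% in library 2, and it begins inside intron 3, keeps the last 368 nt of that intron (chr10:78073339-78073706) and lacks the first 3 exons. Icosl-202 took 23.0% and 25.5%, and it keeps intron 2, of 458 nt (chr10:78071280-78071737), and 236 nt after exon 5. The coding transcript Icosl-201 had 27.5% and 16.2%, or 13.3 and 4.66 TPM. The ends of these introns, in capitals beside 30 nt of exon, are those at which the transcripts part (chr10:78071250-78071309, chr10:78071708-78071767 and chr10:78073677-78073736, plus strand).
Icosl-202, start of intron 2: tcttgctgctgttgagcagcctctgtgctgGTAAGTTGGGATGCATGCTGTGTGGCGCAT
Icosl-202, end of intron 2: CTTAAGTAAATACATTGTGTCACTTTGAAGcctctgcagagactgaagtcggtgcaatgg
Icosl-204, end of intron 3: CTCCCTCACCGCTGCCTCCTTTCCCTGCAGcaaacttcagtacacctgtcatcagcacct

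With coding transcripts alone the sides lay further apart. Cd274 and Pdcd1lg2 have only coding transcripts in the annotation. Only the activating sum could therefore fall, and the direction of this change was fixed beforehand. The activating ligands then summed to 45.5 TPM in library 1 and 31.4 in library 2, with the inhibitory sum as before, so that it was 8.96-fold and 13.4-fold higher. The log2 ratio was -3.46 ± 0.41 (SD, n = 2). Cd86 contributed to this, with 54.2% and 54.3% of TPM in its coding transcript Cd86-201 and the rest in 3 transcripts without an open reading frame in the annotation. By kallisto Cd86-201 held 40.8% and 52.0%. All of the TPM of Cd80, Cd274, Pdcd1lg2 and Havcr2 lay in coding transcripts, the only class annotated for these genes. In Cd200r1 the coding transcript Cd200r1-201 held 81.5% and 87.1%, and the rest lay in transcripts marked for nonsense-mediated decay.

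The leading transcript differed between the libraries in 3 genes, Cd40, Cd80 and Havcr2, of the 9 with several transcripts. The same was so in 23.3% of 10094 detected protein-coding genes with several transcripts. RSEM and kallisto named different leading transcripts for Cd40 and Havcr2, where they did so for 43.5% of 10093 genes. In Cd80, Cd80-201 led in library 1 with 51.7% and was second in library 2 with 33.9%, while Cd80-202 had 43.1% and 66.1%. These transcripts have different ends, 486 nt being found in Cd80-201 only and 1850 nt in Cd80-202 only at the 3′ side. Kallisto gave Cd80-202 45.4% and 64.1%, and Cd80 was the only one of the 10 genes whose leading transcript differed between libraries by kallisto, where it did so in 26.1% of genes.

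Havcr2 showed the widest difference. RSEM placed 100% of the TPM of library 1 in Havcr2-201, and 23.2% of library 2 in Havcr2-201 with 76.8% in Havcr2-202. Havcr2-202 lacks 147 nt of exon 2 (chr11:46456285-46456431), which encodes part of the immunoglobulin-like domain through which TIM-3 binds its ligands. By kallisto Havcr2-201 kept 57.2% in library 2. It also lacks 34 nt at the 5′ end and 9 nt at the 3′ end of Havcr2-201, and the split rests on reads over these 3 stretches, of 193 and 305 counts for the whole gene. The stretch of 147 nt, in capitals, begins with GT and ends with AG, and it is shown with the exon around it (chr11:46456256-46456461, plus strand).
Havcr2-201, stretch kept: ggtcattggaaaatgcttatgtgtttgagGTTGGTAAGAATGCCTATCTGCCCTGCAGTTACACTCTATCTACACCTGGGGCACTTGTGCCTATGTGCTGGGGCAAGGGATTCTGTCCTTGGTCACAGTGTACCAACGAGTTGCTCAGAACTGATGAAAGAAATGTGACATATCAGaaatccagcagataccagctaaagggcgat
Havcr2-202, stretch absent: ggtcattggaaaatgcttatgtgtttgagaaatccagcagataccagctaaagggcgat

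Cd40 was spread over the most transcripts, 7 in the annotation. Coding transcripts held 63.3% of its RSEM TPM in library 1 and 70.8% in library 2. Cd40-201 had 26.2% and 45.1%, and Cd40-202 had 36.2% and 25.7%. By kallisto Cd40-201 had only 5.05% and 8.08% and Cd40-202 8.25% and 5.75%, while Cd40-204 had 37.7% and 40.3%. The share of each transcript thus depends on the program. Cd40-202 skips exon 7, of 87 nt (chr2:165069629-165069715), which encodes the membrane-spanning segment of CD40, and ends 1294 nt earlier. It also lacks 9 nt at the 5′ end of Cd40-201, and the split between these transcripts rests on reads over all these stretches. The joined exons are shown with exon 7 in capitals (spliced, from chr2:165066535-165069846, plus strand), since exon 7 is the inner stretch that sets these coding transcripts apart.
Cd40-201, exon 7 present: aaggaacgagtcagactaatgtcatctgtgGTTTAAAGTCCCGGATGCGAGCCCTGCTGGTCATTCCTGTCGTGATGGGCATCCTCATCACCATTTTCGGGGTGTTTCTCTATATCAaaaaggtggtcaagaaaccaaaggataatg
Cd40-202, exon 7 skipped: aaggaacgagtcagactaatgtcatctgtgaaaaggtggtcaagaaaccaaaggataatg

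Between the libraries, 3 of the 10 genes were over 2-fold apart once the log2 ratios had been centred on that of the median detected gene, and all 3 were higher in library 2. Pdcd1lg2 was 2.30-fold higher, Cd28 2.14-fold and Havcr2 2.08-fold. Of all 13757 detected genes, 7.6% were over 2-fold apart and 3.63% were over 2-fold higher in library 2. Cd200r1 was 1.69-fold, Cd274 1.34-fold and the activating ligand Cd80 1.24-fold higher in library 2, and Icosl was 1.29-fold higher in library 1. The other activating genes, Cd86, Cd83 and Cd40, had centred log2 ratios of -0.003, -0.05 and -0.09. With 1 library on each side no p-value can be given, and the part of the RNA input, which differed with the library, was not tested. With counts scaled by TMM or DESeq2 size factors Havcr2 was inside 2-fold, at a log2 ratio of 0.95 by either, and at a minimum of 50 counts Pdcd1lg2 was not tested, so that 2 genes were past 2-fold in each case. Of all genes tested, 6.1%, 6.07% and 3.76% were past 2-fold in these settings. By kallisto the 3 genes were past 2-fold, with centred log2 ratios of 1.14 for Pdcd1lg2, 1.20 for Cd28 and 1.14 for Havcr2, as were 5.1% of all detected genes. No gene of the set passed 2-fold without centring, or with a pseudocount of 1 TPM, where 13.1% and 2.38% of detected genes did.

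**Figure D4:**
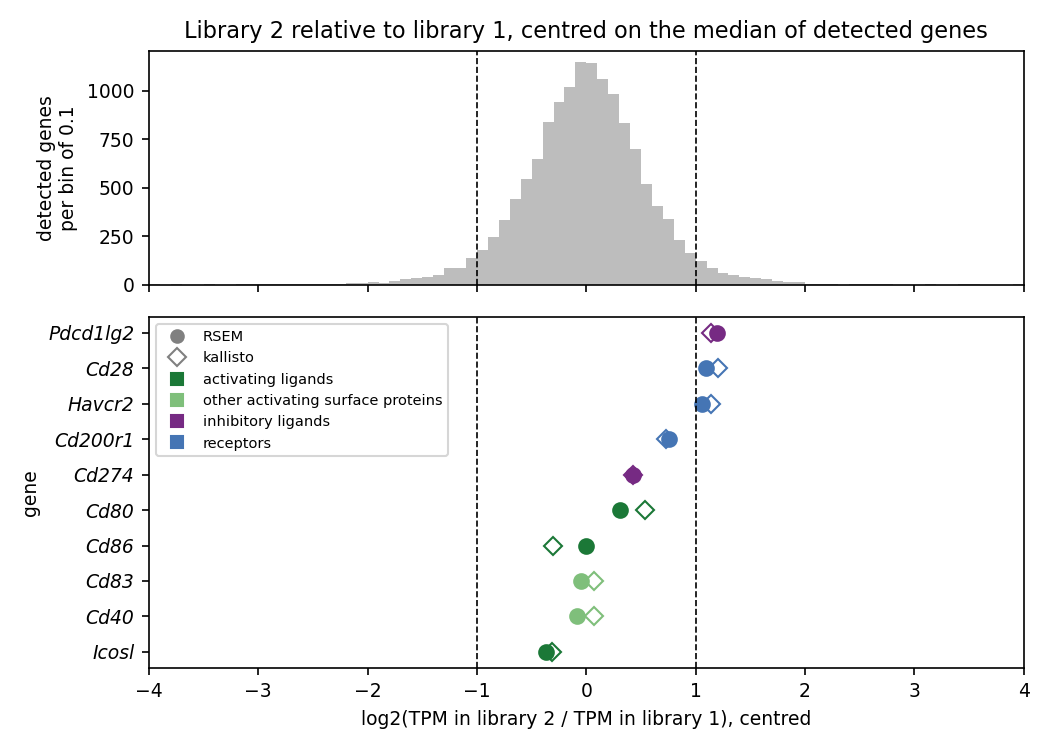
The upper panel is a histogram of log2 RSEM TPM in library 2 over library 1 for 13757 detected genes, centred on their median, and the lower panel shows each of the 10 genes by RSEM (circles) and kallisto (diamonds), with dashed lines at 2-fold. Pdcd1lg2, Cd28 and Havcr2 lie beyond 2-fold by both programs on this scale, Havcr2 being inside it with TMM or DESeq2 scaling, and the other 7 genes lie inside it.

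Around these genes, longer lists of ligands set down as activating or inhibitory were also measured. Of 11 activating ligands, the 3 above included, 7 were detected, and the median was 10.3 TPM. The highest were Icam1, an adhesion ligand of T cell LFA-1, at 300.3 TPM, Tnfsf9, the ligand of 4-1BB, at 254 TPM, and Cd48 at 54.7 TPM, and the lowest detected was Tnfsf8, the CD30 ligand, at 0.795 TPM. Of 17 inhibitory ligands 9 were detected and 6 had 0 counts in both libraries, with a median of 0.900 TPM. After Cd274 the highest were Cd47, the ligand of SIRPα, at 106 TPM and Tnfrsf14, the BTLA ligand HVEM, at 84.2 TPM, and Pdcd1lg2 was the lowest detected. Summed over these longer lists, inhibitory over activating TPM was 1.03-fold in library 1 and 1.14-fold in library 2, a log2 ratio of activating over inhibitory of -0.12 ± 0.11 (SD, n = 2). The excess of the inhibitory side was thus smaller than over the 5 ligands alone. The inhibitory sums were 776 and 724 TPM and the activating sums 755 and 633 TPM. Cd47, whose receptor named above is SIRPα, made 110 and 103 TPM of the inhibitory sums. That is more than the gap between the sums in each library, as are the 407 and 421 TPM of Cd274. The sign of this ratio thus depends on which genes are counted, Cd47 and Cd274 among them.

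Receptors that T cells use to read these ligands were mostly low. Of 17 such receptors 7 were detected, with a median of 0.135 TPM, and Cd28, Havcr2 and Lag3, at 3.29 TPM, were the highest. Tnfrsf4, which encodes OX40, was the lowest detected at 1.02 TPM. Ctla4, Pdcd1, Tigit, Cd40lg and Cd2 had 0 counts in both libraries. Havcr2 was the only one of 4 measured TIM family genes that was detected. In the CD200 receptor family Cd200r1 and Cd200r4, at 16.5 TPM, stood above Cd200r3 at 0.250 TPM, and 3 of 4 measured genes were detected.

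Listed regulators and signalling partners of these proteins were all detected. Of the 6 genes listed as regulators of CD86 or PD-L1, the ubiquitin ligases March1 and March8 stood at 23.0 and 19.1 TPM. Cmtm6, which keeps PD-L1 at the surface, stood at 18.6 TPM. Cmtm4 was the lowest at 2.68 TPM, and the median was 17.7 TPM. The list includes Ciita, at 7.1 TPM, whose action on either protein was not tested. All 5 TRAF adaptors of CD40 were detected, with a median of 10.3 TPM. Traf1 stood far above the others at 163 TPM, ahead of Traf2 at 12.8 TPM and Traf6 at 10.3 TPM, and Traf5 was the lowest at 4.13 TPM. None of these 11 genes was over 2-fold apart between the libraries.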

How the data were processed

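Total RNA depleted of ribosomal RNA was measured in 2 libraries of 1 group. Each had RSEM gene and transcript tables and a kallisto transcript table, on mm10 with GENCODE M21 per the submitters' processing notes; for program versions, the aligner and the use of strand, nothing is given in the sources used here. Expected counts were used as deposited by the authors. TPM is the authors' value per length over all features, short RNAs included, per the file headers: with genes of an effective length under 200 nt and mitochondrial genes left out, Cd274 would be at 1172 and 1500 TPM. The percent of a gene's TPM in each transcript was deposited and was recomputed from transcript TPM. The bounds of each TPM interval, a score deposited by the authors without a level, were not used in the text.

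Genes with an expected count of 10 or more in each library were called detected. Log2 ratios between libraries had no pseudocount and were centred on the median over 13757 detected genes; the ratio step was tested on simulated data. Sums of sides, transcript shares and percentiles were computed per library in Python 3.11.15 with pandas 2.3.3. Alternatives used TMM (edgeR 4.0.16) and size factors (DESeq2 1.42.0) on rounded expected counts, in R 4.3.3. No test was run, since there is 1 group and replicates 1 and 2 give no contrast. All 10 genes are named, and of each longer list the 3 highest and the lowest detected; Cd200r1l and Timd5 had no match. Other genes are named where they overlap one of the 10, had few or 0 counts, or limit what a list shows. Members and lists were chosen with earlier results of these data known. Sequences came from the M21 transcripts and RefSeq promoters (GRCm38.p6).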

Additional observations from a re-analysis of the deposited data

How the results depend on the processing

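The log2 ratio of activating over inhibitory ligands, -2.32 as reported, was -1.79 by kallisto, -3.15 with expected counts not scaled by length, -0.34 with Cd40 and Cd83 added, and -0.12 over the longer lists. In 2 alternatives chosen after seeing the data it was -3.46 with coding transcripts only and turned to 6.58 without Cd274. With coding transcripts only, the annotation allowed no fall of the inhibitory sum. With 1 library left out it was -2.60 or -2.04, which only restates the value of the other library. With medians it was -2.61, but the median of 2 inhibitory ligands is their mean, so it still rests on Cd274. With posterior mean TPM it was -2.31. The count of genes over 2-fold apart, 3 as reported, was 0 with a pseudocount of 1, where 2.38% of detected genes passed, and 0 without centring, where 13.1% did. It was 2 with TMM and with DESeq2 size factors, which lost Havcr2, where 6.1% and 6.07% of detected genes passed. At 50 or more counts, which lost Pdcd1lg2, it was 2, where 3.76% of 10150 genes passed. It was 3 by kallisto, where 5.1% passed, and 3 without a minimum, where 17.9% of 18490 genes did. The steps free of overlap in the order, 6 as reported, were 3 by kallisto and 6 with posterior mean or rescaled TPM. At 50 or more counts 9 genes were detected, Pdcd1lg2 being lost. By kallisto 5 of the 10 percentiles and 4 of the 10 leading transcript shares moved by over 1 SD. The share of Cd274, with 1 annotated transcript, could not move. No paired analysis was possible because there is 1 group. Depth limits Pdcd1lg2 most, at 20 and 37 counts.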
